A study of Mus musculus with 6 samples.

Results

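The genes described here are 10 mouse genes of type 2 inflammation, the immune response driven by the cytokines IL-4 and IL-13: Tslp, Il4ra, Il13ra1, Fcer2a, Retnla, Chil1, Chil3, Arg1, Arg2 and Tff2. They were taken by exact gene symbol from the array's annotation, as 10 of the 18193 genes that have a probe set of their own, and they have 18 probe sets between them. RNA came from alveolar type II cells, the surfactant-making cells of the lung, isolated from mice 2 months old. The Insig1-deleted group (Insig1 ∆/∆ /Insig2 -/-) carried SpC-rtTA, Otet-CRE, Insig1 flox/flox and Insig2-/-, so that doxycycline, given from E6.5 to E12.5, switched on Cre under the SFTPC promoter. The control group (Insig1 flox/flox /Insig2 -/-) lacked either SpC-rtTA or Otet-CRE and therefore kept floxed Insig1. Both groups lacked Insig2, and the labels of both give the same doxycycline window. Because no mice had the full Cre system with intact Insig1, an effect of Cre or rtTA and an effect of losing Insig1 cannot be told apart. Each group was measured on 3 Affymetrix arrays, each holding 1 independent pool of RNA, so every test below measures the spread between pools. The sources used here do not say how many mice made up a pool.

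IL-4 and IL-13 signal through receptors that share the chain encoded by Il4ra, which pairs either with the common gamma chain or with the chain encoded by Il13ra1. Both receptor forms activate the transcription factor STAT6. In mouse lung this pathway is known for inducing Retnla, Chil3 and Arg1 in macrophages and mucus genes in airway epithelium, and the epithelial cytokine TSLP, with IL-33 and IL-25, is known for starting it.

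The 10 genes were chosen with earlier results of this genotype contrast known, in which Retnla and Fcer2a were among the largest increases, so their differences are given as a description without p-values. In 6 of them the brightest probe set was higher in each deleted pool than in any control pool: Retnla, Fcer2a, Chil1, Chil3, Arg2 and Il4ra. The other 4 had groups that overlapped, namely Arg1, Il13ra1, Tslp and Tff2. The split ran within the receptors, with Il4ra on one side and Il13ra1 on the other, and within the arginases, with Arg2 and Arg1. Most macrophage markers moved with the higher genes, with 16 of 20 measured above 0 and a median log2 fold change of 0.89. By limma 6 of the 20 rose, where 0.315% of all probe sets tested were called higher, and none did without deleted replicate 2. In bulk isolates more cells of a type and more RNA per cell cannot be told apart. Signals are MAS5 intensities on a linear scale, and a log2 fold change is the deleted minus the control mean of log2 signal, with its moderated standard error (SE) from limma.

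Of the 18 probe sets, 15 passed a filter on low signal (a mean log2 signal of 8.08 or more over the 6 arrays, a signal of about 271), and they covered 9 genes. Below it lay Tslp's only probe set and 1 each of Fcer2a and Il4ra. Among the 15, 8 had deleted pools wholly above control pools and none had them wholly below, where 7.69% of all 27022 probe sets past the filter were wholly above and 7.88% wholly below. In the limma fit over those 27022, 5 of the 15 had an adjusted p under 0.05, all higher, where 0.315% of all were called higher, 0.00740% lower and 0.322% in either direction. As the genes were picked on this contrast, nothing is read from these counts. The 5 belonged to Retnla, Fcer2a, Chil1, Chil3 and Arg2, and for Arg2 it was the dimmer probe set, not the brightest. Without deleted replicate 2 none of the 15 was called, and without deleted replicate 1, deleted replicate 3 or control replicate 1 there were 2, those of Retnla and Fcer2a. Over the array these fits called 3, 29, 17 and 57 probe sets, where 87 were called with all pools, 461 without control replicate 2 and 198 without control replicate 3.

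Some pools stood apart. Control replicate 3 lay at -61.5 on the first principal component of log2 signal, where the other pools lay between -7.64 and 24.5. Deleted replicate 1 had the lowest airway marker level, 0.96 below the control mean on the log2 scale, where the other deleted pools were 0.10 and 0.05 below it. Sftpc, the surfactant protein C gene of type II cells, gave 80090 to 118953 in deleted pools and 97603 to 143129 in control pools. A high signal of this gene does not show how pure the isolates were. The isolates were not free of airway cells, since Scgb1a1, which marks club cells, gave 141333 to 174921 in deleted pools and 142847 to 197205 in control pools and was the top signal of each array. The Insig1 probe set gave 1252, 1442 and 1750.4 in deleted pools against 2300.1, 3325 and 2959.5 in control pools, a log2 difference of -0.95 ± 0.19 (adjusted p = 0.096, limma). It cannot serve as a full check of the labels, because the position of its probes relative to the floxed exons is unknown here.

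**Figure D1:**
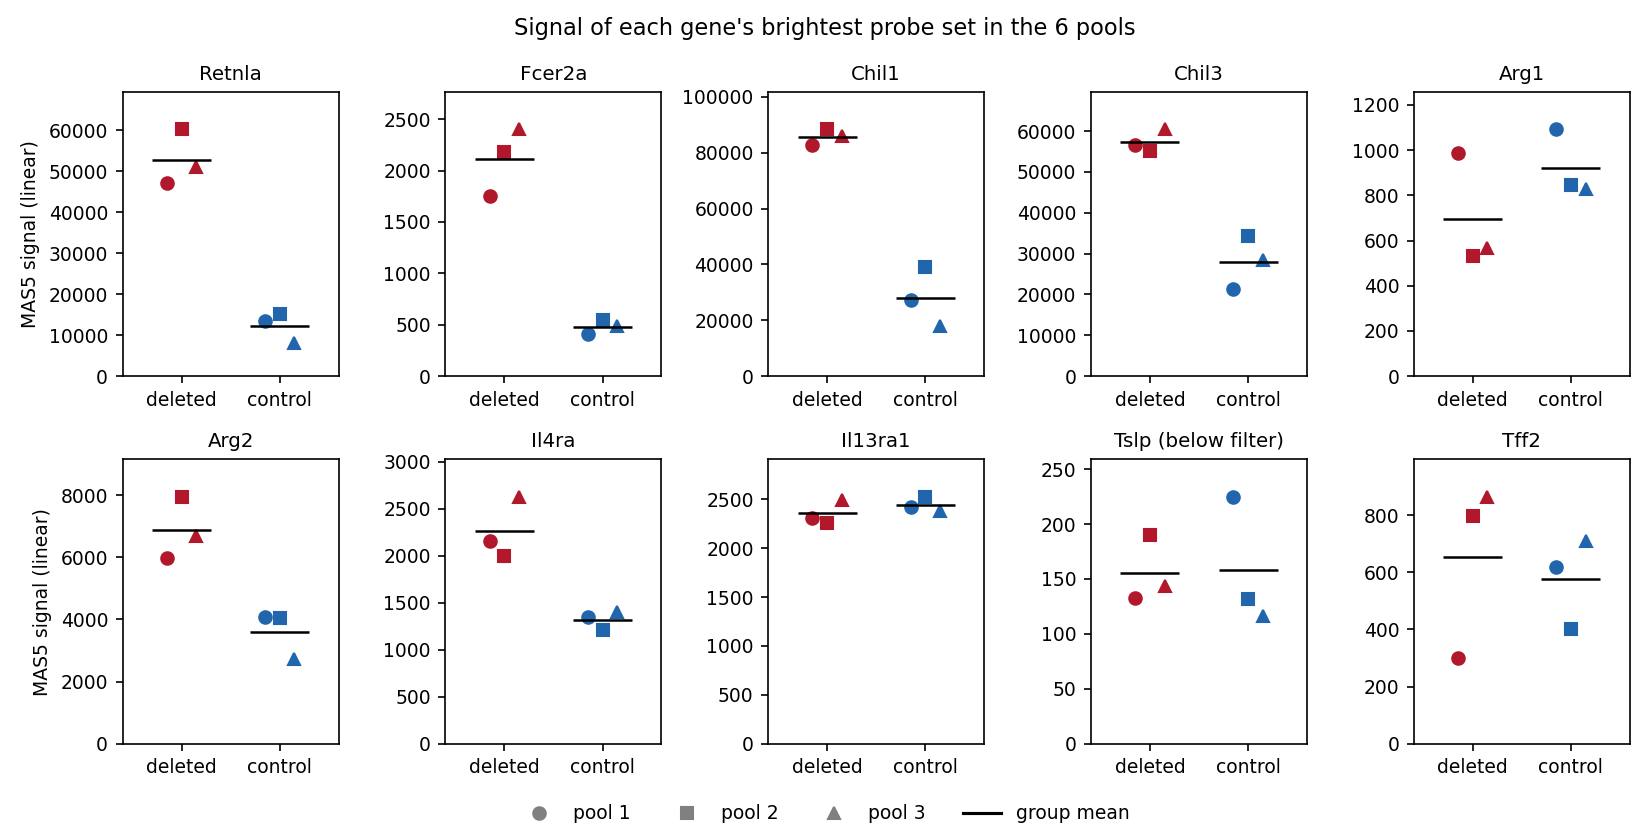
Each panel plots the linear MAS5 signal of a gene's brightest probe set in the 3 deleted pools (left, red) and the 3 control pools (right, blue), with pool numbers as symbols and a bar at the group mean. Deleted pools lie wholly above control pools for Retnla, Fcer2a, Chil1, Chil3, Arg2 and Il4ra, and the groups overlap for Arg1, Il13ra1, Tslp and Tff2. Panels have separate axes, since levels of different probe sets are not comparable.

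Among the ligands, Tslp, the epithelial alarmin, was too dim to compare. Its probe set gave 132, 190.0 and 143 in deleted pools and 225, 132 and 116 in control pools, all below the filter. The log2 fold change of 0.02 ± 0.48 allows a change in either direction.

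Il4ra, the signalling chain shared by the IL-4 and IL-13 receptors, had signals of 2155, 1994 and 2628 in deleted pools against 1343, 1214 and 1404 in control pools on its brightest probe set. The lowest deleted pool thus lay well above the highest control pool. Means were 2259 ± 329.5 in deleted and 1320.4 ± 97.4 in control pools (SD, n = 3 each), a log2 fold change of 0.77 ± 0.16 or 1.70-fold. A second probe set repeated this with little spread, at 1027, 989 and 1006 in deleted pools against 553, 498 and 482 in control pools, a log2 fold change of 0.98 ± 0.18. The third, below the filter, gave 129 to 371 in deleted pools and 151 to 356 in control pools and showed no separation (-0.04 ± 0.51).

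Il13ra1, which pairs with the Il4ra chain to form the receptor that binds IL-13, was measured by 5 probe sets, all past the filter. The brightest gave 2312, 2262 and 2493 in deleted pools and 2425, 2529 and 2378 in control pools, so the groups overlapped. Its log2 fold change was -0.05 ± 0.12 and turned to 0.03 when arrays were shifted to a common median. The other probe sets gave 0.07 ± 0.16, -0.12 ± 0.15, 0.03 ± 0.21 and -0.30 ± 0.21, and the groups overlapped on each. All 5 estimates lay below both Il4ra values past the filter, a difference that was not tested.

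Fcer2a encodes CD23, the low-affinity IgE receptor known from B cells. Signals were 1755, 2181 and 2404 in deleted pools against 410.2, 544 and 490.4 in control pools, with means of 2113 ± 329.6 and 482 ± 67.3 (SD, n = 3 each). Every deleted pool exceeded the highest control pool by a wide margin, and the log2 fold change was 2.13 ± 0.19, or 4.38-fold. The dimmer probe set pointed the same way, with 317, 372 and 282 in deleted pools against 32.5, 15.6 and 99.2 in control pools. It lay below the filter through its control values, where MAS5 log ratios are noisy, and its log2 fold change of 3.12 ± 0.70 is accordingly imprecise.

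Retnla, which encodes the secreted resistin-like molecule alpha (FIZZ1), had 47034, 60247 and 50890.1 in deleted pools against 13534, 15170.1 and 8034 in control pools. Means were 52724 ± 6794 in deleted and 12246 ± 3738 in control pools (SD, n = 3 each). This was a log2 fold change of 2.15 ± 0.22, or 4.44-fold. Control replicate 3 held the lowest value, and without it the log2 fold change was 1.87.

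Chil1 and Chil3 encode secreted chitinase-like proteins (BRP-39 and Ym1) that belong to the chitinase family but lack its enzymatic activity. Chil1 had 82886, 88476 and 86060.4 in deleted pools against 27167, 39164.5 and 17789.5 in control pools. The deleted pools were close together (mean 85807.5 ± 2804) and the control pools spread widely (28040.4 ± 10714, SD, n = 3 each). The log2 fold change was 1.69 ± 0.24, or 3.22-fold, and 1.39 without control replicate 3, again the lowest pool.

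Chil3 had 56547, 55259 and 60514.5 in deleted pools against 21383, 34221.5 and 28486.5 in control pools. Here control replicate 1 was lowest and control replicate 3 in the middle. Means of 57440.4 ± 2739 in deleted and 28030.4 ± 6431 in control pools (SD, n = 3 each) gave a log2 fold change of 1.06 ± 0.16, or 2.09-fold. A further probe set is annotated to both Chil3 and its close relative Chil4 (Ym2), so its signal cannot be given to either, and it is not counted among the 18. It gave 37859, 32468 and 34552 in deleted pools against 10868, 15558 and 14002 in control pools, a log2 fold change of 1.39 ± 0.14. The probe set naming Chil4 alone was below the filter, at 228, 342 and 268 in deleted pools and 193, 204 and 288 in control pools, with overlapping groups.

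Promoter sequences are shown for the members with the larger differences, to set them beside the pathway's transcription factor. RefSeq windows (GRCm38.p6) were used for 6 of the 10 genes, Retnla, Fcer2a, Chil1, Chil3, Il4ra and Il13ra1, with 8 windows in all, since Fcer2a had several. For the other 4 no window was used. The search in members skipped a chromosome that the shares over all windows, given below, kept. The 250 bases before each annotated start are printed 5′ to 3′ in lower case, with motif letters in capitals. For Fcer2a the window shown is that of a downstream start, the one that held a match.
Retnla, chr16:48842359-48842608, plus strand: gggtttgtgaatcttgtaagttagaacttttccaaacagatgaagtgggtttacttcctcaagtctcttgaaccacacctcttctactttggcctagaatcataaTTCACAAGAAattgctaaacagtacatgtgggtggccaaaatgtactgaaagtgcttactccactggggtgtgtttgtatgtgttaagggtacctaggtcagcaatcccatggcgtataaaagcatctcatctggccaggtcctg
Fcer2a, chr8:3690862-3691111, minus strand: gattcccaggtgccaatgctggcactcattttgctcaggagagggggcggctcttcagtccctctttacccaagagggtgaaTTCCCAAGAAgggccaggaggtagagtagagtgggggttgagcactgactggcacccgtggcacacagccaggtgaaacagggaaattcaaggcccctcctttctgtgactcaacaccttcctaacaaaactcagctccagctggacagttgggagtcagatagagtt
Chil3, chr3:106167565-106167814, minus strand: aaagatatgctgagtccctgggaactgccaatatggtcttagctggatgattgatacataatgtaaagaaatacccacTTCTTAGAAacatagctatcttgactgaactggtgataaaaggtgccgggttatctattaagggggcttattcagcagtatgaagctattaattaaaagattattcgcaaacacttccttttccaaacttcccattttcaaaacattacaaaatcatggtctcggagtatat
Chil1, chr1:134181906-134182155, plus strand: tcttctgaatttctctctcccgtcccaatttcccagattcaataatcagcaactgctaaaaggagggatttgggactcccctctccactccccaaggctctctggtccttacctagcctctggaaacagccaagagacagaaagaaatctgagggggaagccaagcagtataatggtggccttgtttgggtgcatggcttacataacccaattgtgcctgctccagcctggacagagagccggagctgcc
Capitals mark TTC and GAA with any 4 bases between them, the spacing that STAT6 is known to prefer, in Retnla (TTCACAAGAA, 145 to 136 bases before the start) and Fcer2a (TTCCCAAGAA, 168 to 159 bases before the start). In Chil3 they mark TTC and GAA with any 3 bases between them, the spacing of other STATs (TTCTTAGAA, 172 to 164 bases before the start). Among all 32851 RefSeq windows, 5.85% held the first motif and 7.02% the second, on either strand, so a match is common, and no match overlapped another in these windows. Chil1, Il4ra, Il13ra1 and the other Fcer2a windows held neither, which says only that these letters are not there. CACGTG, an E-box (6.02% of windows), and TCACNCCAC, a form of the sterol regulatory element (1.05%), were in none of the 8.

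The arginases compete with nitric oxide synthases for arginine, Arg1 in the cytosol and Arg2 in mitochondria. Arg2 had 5969, 7954 and 6698 in deleted pools against 4068, 4031 and 2732 in control pools, with no overlap. Means of 6874 ± 1004 in deleted and 3610.4 ± 761 in control pools (SD, n = 3 each) gave a log2 fold change of 0.94 ± 0.18, or 1.92-fold, and 0.75 without control replicate 3. Its second probe set gave 3367, 4231 and 3922 in deleted pools against 1923, 1906 and 1652 in control pools, a log2 fold change of 1.07 ± 0.14. Only this second probe set, not the brightest, was called by limma.

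Arg1, the arginase best known as a marker of IL-4-treated mouse macrophages, was not higher. Its probe set gave 988, 534 and 567 in deleted pools and 1093, 844 and 828 in control pools. Deleted replicates 2 and 3 lay below every control pool while deleted replicate 1 lay between them, and the log2 fold change was -0.45 ± 0.26. Without deleted replicate 1 it was -0.73, and without deleted replicate 2 it was -0.29. Arg1 and Arg2 therefore pointed in opposite directions, in values that were not tested against each other.

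Tff2, a trefoil peptide that mucosal cells secrete for repair, varied more within the groups than between them. Signals were 299.9, 796 and 865 in deleted pools and 618, 402 and 709 in control pools. The log2 fold change of 0.08 ± 0.41 became 0.57 without deleted replicate 1 and -0.20 without deleted replicate 3. Deleted replicate 1, the low pool, also had the lowest mean of the airway marker list. Reg3g, picked from that list outside the naming rule, had 155 there where the other 5 pools had 1323 to 2712. Krt5 of the same list lay within the range of the others, at 378 against 362 to 743. Tff1, a trefoil relative, was highest in that pool, at 4826 against 2985 to 4214. The part of airway cells in the Tff2 value was not tested.

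**Figure D2:**
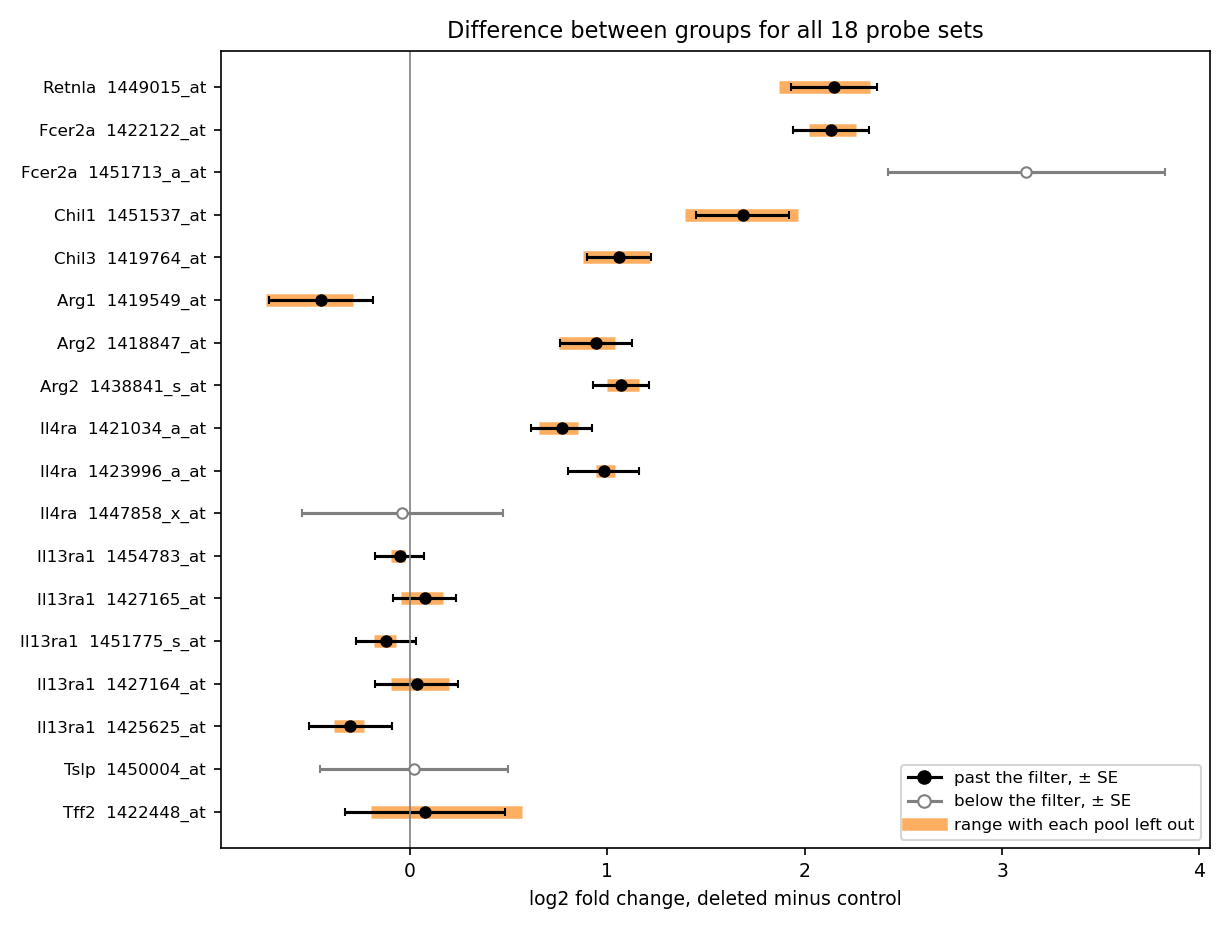
Points give the log2 fold change (deleted minus control) of each of the 18 probe sets with its SE, filled where the probe set passed the filter, and the orange band, drawn for the 15 that passed it, gives the range when each pool was left out in turn. Retnla, the brighter Fcer2a probe set, Chil1, Chil3, both Arg2 probe sets and the 2 Il4ra probe sets past the filter lie above 0 over their whole band, Arg1 lies below it, and Tff2 and 2 of the 5 Il13ra1 bands cross it.

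Patterns over the pools were compared with those of 12325 other named genes past the filter, by Pearson's r of log2 signal over the 6 arrays. With so many candidates and so few arrays the best values lie near 1, so they are a description only. Retnla was most like Tm7sf2 (r = 0.997), Cd302 and Msmo1, and Chil1 most like Cd302 (0.997), Lcn2 and Fdft1. Chil3 was most like Car4 (0.995), Neu1 and Alox5ap, Fcer2a most like Pla2g7 (0.999), Cyba and Ncaph2, and Arg2 most like Fads2 (0.997), Map2k1 and Ccdc69. Il4ra was nearest to Abhd10 (0.992), Mxd3 and Mknk1, Il13ra1 to Tspan9 (0.985), Il17d and Kcnh2, Arg1 to Ireb2 (0.997), P2ry4 and Sppl2b, and Tff2 to Dusp10 (0.987), Mtmr11 and Phf13. After group means were removed the first-named r was 0.97 for Retnla, 0.99 for Chil1, 0.97 for Chil3, 0.96 for Fcer2a and 0.999 for Arg2.

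Other genes of the pathway came from 6 lists of 125 genes, of which 80 had a probe set past the filter. Over all 27022 probe sets limma called 2 of the 80 higher and none lower. Both were among 25 genes known to respond to IL-4 or IL-13 in mice. Of the 80, 22 were higher and 2 lower with an unadjusted p under 0.05. By that measure 4.84% of all 27022 probe sets were higher and 5.35% lower, which is the background for every such count given here. Slc26a4, the anion exchanger pendrin, gave 15658.5, 20652 and 14282 in deleted pools against 818, 2317 and 958 in control pools (log2 3.77 ± 0.34, adjusted p = 0.0060, limma), and it was put in its list with that result known. Clec7a, the beta-glucan receptor dectin-1 of myeloid cells, gave 7861, 6826 and 6831 in deleted pools against 2558, 3399.6 and 2979 in control pools (log2 1.27 ± 0.14, adjusted p = 0.0075, limma). The median log2 fold change of the 80 was 0.12, where that of all 27022 was -0.02. Neither gene was called without deleted replicate 2, Slc26a4 alone was called without deleted replicate 1 or 3, and 4 genes were called without control replicate 2 or 3.

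Upstream of the receptors, none of 4 measured cytokine genes was called by limma, and 1 was higher with an unadjusted p under 0.05. That gene was Il33, an epithelial alarmin, at 31834, 24777 and 26422 in deleted pools against 14892, 28208 and 12286 in control pools (log2 0.67 ± 0.26, adjusted p = 0.44, limma), where control replicate 2 overlapped the deleted pools. Il4 and Il13 lay below the filter, Il13 at 51.8 to 85.5 in deleted pools and 21.9 to 43.7 in control pools. None of 21 receptor and signalling genes was called by limma either, with 7 higher and none lower with an unadjusted p under 0.05. Stat5a (log2 0.69 ± 0.15, adjusted p = 0.16, limma) and Cish (0.49 ± 0.13, adjusted p = 0.24, limma) had the smallest p. Stat6 itself, outside the naming rule and picked as the pathway's factor, gave 5864, 5914 and 6210.2 in deleted pools against 4640.2, 5072 and 4562 in control pools (log2 0.33 ± 0.11, adjusted p = 0.35, limma).

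Relatives of the members were measured too. Of 6 measured chitinase, resistin and trefoil relatives none was called by limma, and 1 was lower with an unadjusted p under 0.05. It was Chia1, the active acidic chitinase, at 16689.7, 15095 and 13289 in deleted pools and 22323, 19325 and 15757 in control pools (log2 -0.34 ± 0.15, adjusted p = 0.49, limma), next to Chid1 at 0.11 ± 0.16 (adjusted p = 0.88, limma). Among 19 genes of arginine and polyamine metabolism none was called by limma, with 3 higher with an unadjusted p under 0.05, led by Asl (0.47 ± 0.14, adjusted p = 0.30, limma) and Azin1 (0.51 ± 0.18, adjusted p = 0.37, limma), and the median was -0.01. Nos2, the inducible nitric oxide synthase, lay below the filter. Of 6 IgE receptor genes and CD23 partners none was called by limma and 3 were higher with an unadjusted p under 0.05, with Fcer1g at 0.84 ± 0.18 (adjusted p = 0.15, limma) and Itgax at 0.996 ± 0.27 (adjusted p = 0.26, limma).

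**Figure D3:**
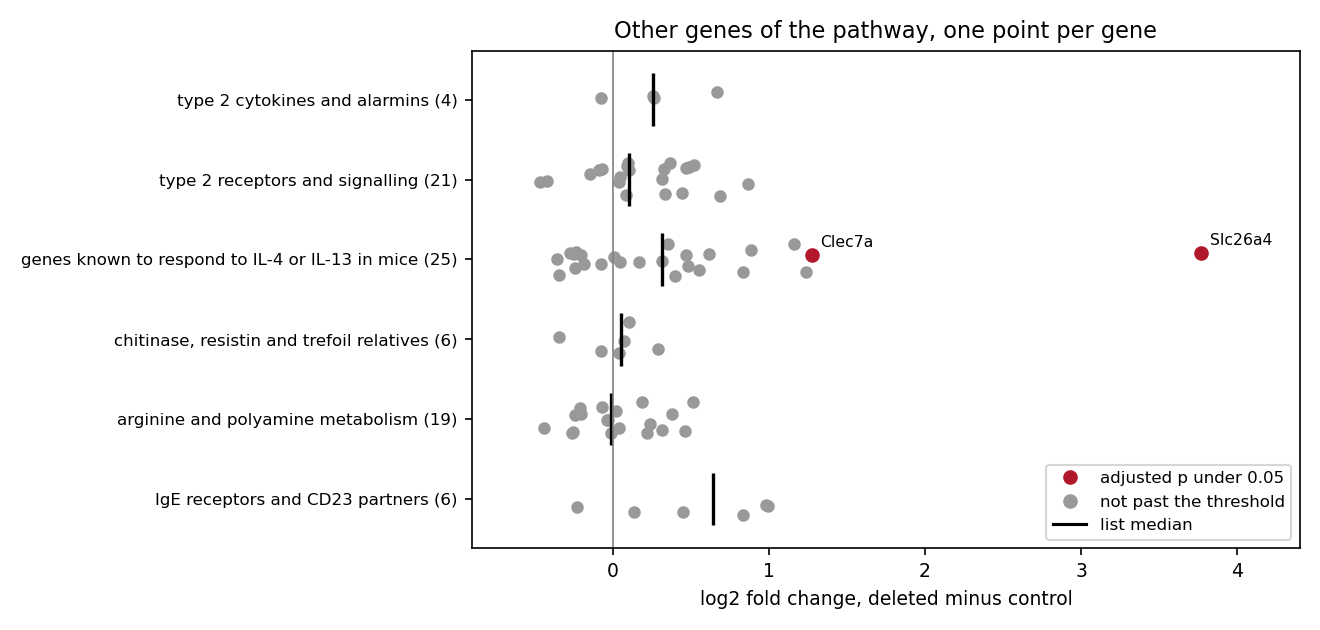
Each point is the log2 fold change (deleted minus control) of a gene's brightest probe set past the filter, by list with the number of genes in parentheses, and the black bar is the list median. Slc26a4 and Clec7a, in red, were the 2 genes with an adjusted p under 0.05 (limma), and the list medians lie between -0.01 and 0.64.

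Marker lists of other cells differed in direction and size. Of 20 measured macrophage markers 6 rose and none fell (limma), where 0.315% of all 27022 probe sets were called higher. Deleted pools lay wholly above control pools in 14, where 7.69% of all did, and the median log2 fold change was 0.89. Values of 16 lay above 0, and those of Lgals3 (-0.23), Cd36 (-0.20), Plet1 (-0.18) and Lyz1 (-0.05) lay below it. Gpnmb (1.86 ± 0.18), Marco (2.26 ± 0.28), Cd68 (0.9996 ± 0.12) and Mpeg1 (1.37 ± 0.18) had the smallest p. Without deleted replicates 1, 2 and 3 the count was 1, 0 and 1, and without control replicate 1 it was 3. Summed signals of the list were 316211 to 330776 in deleted pools and 272129 to 338598 in control pools, dominated by Lyz1, and 157273 to 181195 against 136641 to 159939 with Lyz1 left out. Chil3 and Retnla are known products of lung macrophages, and the part of macrophages in their values was not tested.

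Of 11 B cell markers none was called by limma, 2 were higher with an unadjusted p under 0.05, Ighm (log2 1.28 ± 0.38) and Cd22 (0.84 ± 0.27), and the median was 0.32. Their summed signal was 15260.1 to 21966 in deleted pools and 7802 to 15508 in control pools, and Cr2 and Pax5 lay below the filter. The list's mean log2 signal was highest in deleted replicate 1 and next in control replicate 3. Of the deleted pools, Fcer2a was lowest in deleted replicate 1 on its brighter probe set (1755) and in deleted replicate 3 on its dimmer one (282). Of the control pools, it was highest in control replicate 2 on the brighter (544) and in control replicate 3 on the dimmer (99.2). The part of B cells in the Fcer2a value was not tested. Eosinophil genes were dim, with Epx, Prg2, Prg3 and Ccr3 below the filter at signals of 10.5 to 268, and of 11 mast cell and basophil markers 7 lay below the filter and none of the 3 measured was called by limma (none with an unadjusted p under 0.05). Siglecf, listed with both eosinophils and alveolar macrophages, stood at 0.70 ± 0.25 (adjusted p = 0.39, limma). No marker's signal was 0.

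T and innate lymphoid cell markers had none of 10 called by limma and 2 higher with an unadjusted p under 0.05, Rora (0.45 ± 0.14) and Icos (0.60 ± 0.20). Values of 7 lay above 0, and those of Cd8a (-0.65), Gata3 (-0.42) and Klrg1 (-0.06) lay below it, with a median of 0.26. Summed signals were 13513 to 15209 in deleted pools and 8499 to 15953 in control pools. Neutrophil markers had none of 3 called and 2 higher with an unadjusted p under 0.05, S100a8 (1.01 ± 0.26) and S100a9 (0.95 ± 0.29). Ltf, the other measured marker, was at -0.17 ± 0.37, and 5 more lay below the filter with overlapping groups. Of 13 type II cell markers none was called by limma and 1 was higher with an unadjusted p under 0.05, Il33, with a median of 0.10. Of 15 airway markers limma called 2 lower, Ccdc153 (-1.18 ± 0.16) and Sox2 (-0.83 ± 0.13), where 0.00740% of all 27022 probe sets were called lower. With an unadjusted p under 0.05, 4 were lower and none higher. The value of 1 lay above 0, and the median was -0.33.

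**Figure D4:**
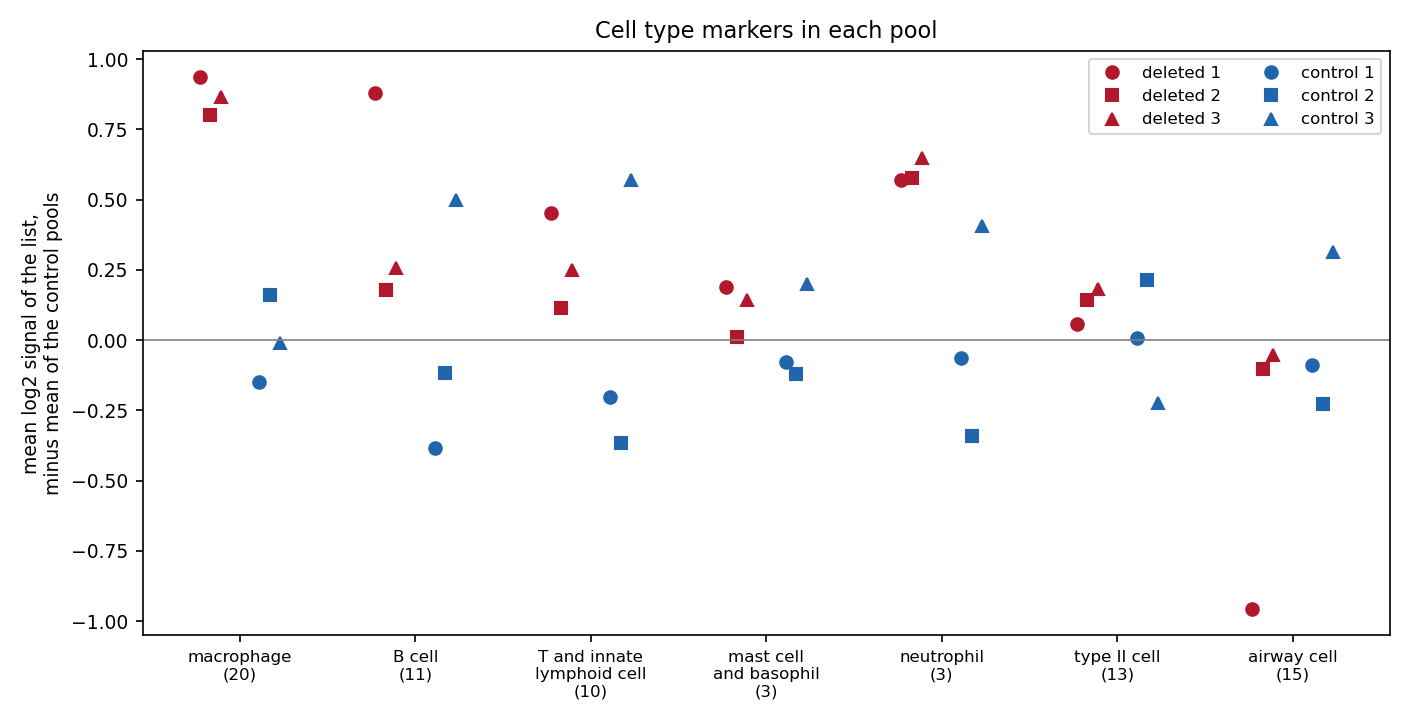
The mean log2 signal of each marker list is plotted for every pool relative to the mean of the control pools, with deleted pools in red to the left of control pools in blue and the number of genes in parentheses. Macrophage and neutrophil lists have all deleted pools above all control pools, with macrophage markers at 0.80 to 0.94 in deleted pools and -0.15 to 0.16 in control pools, and deleted replicate 1 is lowest for airway markers at -0.96.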

How the data were processed

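Each array held 1 pool of RNA, and the table the authors deposited holds the intensity of each probe set on a linear scale. MAS5, of unstated version, made these values per the submitters' processing notes. Each array had been scaled alone to the same trimmed mean. In MAS5 values dim probe sets carry noisy ratios. Detection calls were not used here. The number of arrays limits the precision. Of 45101 probe sets, 64 were controls, 34945 named 1 gene, 932 several and 9160 none here, by the platform annotation.

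Signals under 1 were set to 1, log2 was taken and probe sets under the 40th percentile of mean log2 signal were left out. limma 3.58.1 in R 4.3.3 (lmFit, eBayes with an intensity trend) compared 3 deleted with 3 control pools, two-sided, with Benjamini-Hochberg adjustment over 27022 probe sets and a threshold of 0.05. With 3 against 3 the smallest exact permutation p is too large for single genes. The step was tested on simulated data. The members, lists and rules were chosen with earlier results of these data known. Genes in lists were named by smallest p (up to 4 called, otherwise 2), each by its brightest probe set. Planned protein comparisons were not made here. Promoters came from RefSeq. Alternatives are given in the closing section. Figures were drawn with matplotlib 3.10.9.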

Additional observations from a re-analysis of the deposited data

How the results depend on the processing

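The count of probe sets called over the array, 87, was 131 with arrays shifted to a common median, 170 with array weights, 4 without an intensity trend, and between 3 and 461 with each pool left out. The 2 other pathway genes called became none without an intensity trend and 4 with array weights, and between 0 and 4 with each pool left out. Without an intensity trend the 6 macrophage markers became 0 and the 5 member probe sets became 1, that of Fcer2a, and with each pool left out they were between 0 and 8 and between 0 and 6. The last 2 counts were followed after the data were seen. Fewer samples enter each of these leave-one-out fits, and the cause of the other shifts was not tested. Quantile normalization, log2 of the signal plus 16, dropping the filter, filtering at the 60th percentile and 1 value per gene kept every count within 1.5 times.

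Pools of the same number share only a label. Deviations from group means correlated at 0.11, 0.054 and 0.13 for numbers 1, 2 and 3, and each pool correlated best with its own number, a hint from the data and not the design. With the pool number as a replicate block 145 probe sets were called over the array and 4 other pathway genes.

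Of 229 member values under the alternatives, 227 moved by less than 1 SD between pools, and 8 changed sign, all of Il13ra1 or Tff2. The Il4ra and Il13ra1 values that moved further did so with the median shift. This tally is no measure of robustness. Changing the trend or the filter, adding the replicate block or taking the brightest probe set leaves a log2 fold change as it was by construction. The SD was each probe set's own within groups, 0.67 for Tff2, so its sign changes counted as small moves. Retnla ran from 1.87 to 2.33, Fcer2a from 2.02 to 2.26, Chil1 from 1.39 to 1.96, Chil3 from 0.88 to 1.22, and Arg2 from 0.75 to 1.04 on its brightest probe set. Dim signals limit Tslp and the third Il4ra probe set.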

Other observations

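One gene outside the filter drew attention after its values were seen. Itln1, which encodes an intelectin that IL-13 is known to induce in mouse airways, gave 499.9, 444 and 594 in deleted pools against 125, 15.7 and 33.3 in control pools. The groups did not overlap, its log2 fold change was 3.66 ± 0.72, and in the fit without a filter its adjusted p was 0.14 (limma). Among other genes that IL-13 is known to induce, Clca1 and Muc5ac lay below the filter with overlapping groups. They gave 113 to 226 and 52.2 to 289 in deleted pools and 168 to 274 and 61.3 to 160.5 in control pools. Spdef also overlapped below the filter, at 401, 325 and 215 in deleted pools against 85.4, 50.3 and 252 in control pools (log2 1.56 ± 0.62). All were picked from 14 genes of the IL-4 or IL-13 list below the filter, and the rest had values on both sides of 0. Mrc1, the mannose receptor of macrophages, had 4160.3 to 5014 in deleted pools against 1975 to 2813 in control pools (log2 0.89 ± 0.16, adjusted p = 0.069, limma). Ccl22, a chemokine of macrophages and dendritic cells, had 1070.0 to 1692 in deleted pools against 436 to 666 in control pools (log2 1.24 ± 0.24, adjusted p = 0.089, limma). Mrc1 and Ccl22 were picked outside the naming rule from the genes known to respond to IL-4 or IL-13. Of the 25 past the filter, 9 had deleted pools wholly above control pools, where 7.69% of all probe sets did. Klf4 (-0.27 ± 0.11) and Slc7a2 (-0.20 ± 0.12) were the 2 wholly below, where 7.88% of all were. The list was chosen with earlier results of these data known, and Slc26a4, among the 9, was put in it for that reason. Nothing is therefore read from these counts.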
